A study of Mus musculus with 38 samples.

Results

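The transcriptomes of endothelial cells (ECs) and fibroblasts sorted from uninjured mouse hearts were compared gene by gene. All 8 Sham libraries of these populations entered the comparison, 4 of ECs (EC Sham 1 to 4) and 4 of fibroblasts (FB Sham 1 to 4), out of 38 libraries in the series, and they were chosen by their sample labels alone. The full series also holds cardiomyocytes and, for each population, hearts taken 2 hours after the end of an ischemic period with or without empagliflozin pretreatment. All Sham hearts came from male C57BL/6 mice of 8 to 12 weeks that received the vehicle (DMSO in saline) by mouth for 6 weeks and then an open-chest operation without ischemia, and each library held the cells of 2 pooled hearts. The mice carried no transgene or deletion. Hearts were digested with collagenase, cardiomyocytes were spun down, and the remaining cells were sorted by flow cytometry. ECs were the cells without CD45, a leukocyte protein, and with CD31, which Pecam1 encodes. Fibroblasts were the cells without CD45 and CD31 and with CD90, which Thy1 encodes. The gate therefore admits every CD31-bearing vessel and lymphatic cell as an EC and every CD90-bearing stromal cell as a fibroblast, and the CD45.1 antibody named in the study recognizes the other allele than the one C57BL/6 mice carry.

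ECs line the inner face of every blood and lymphatic vessel and of the heart chambers. In the heart muscle most of them form capillaries, where they pass fatty acids from blood lipoproteins to cardiomyocytes, hold the barrier through VE-cadherin and claudin junctions, and answer to vascular endothelial growth factor (VEGF), Notch and BMP signals. Resident fibroblasts lie between the muscle fibers and the capillaries. They make and turn over the interstitial matrix of collagens, proteoglycans and elastic fibers, and they carry the receptors for platelet-derived growth factor (PDGF), whose ligands ECs release. Much of the signaling between vessel and stroma is thus split between a cell that makes a ligand and a cell that makes its receptor, and the genes below are ordered by such roles.

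Depth and purity set the limits of each value. Total counts were 1352514 to 2060838 in EC libraries and 2122433 to 2821373 in fibroblast libraries, and 3 counts, taken as the floor of detection, were worth 1.12 to 2.10 CPM (counts scaled to a library size of 1e+06). Mitochondrial genes took 5.16% to 7.67% of EC counts and 4.10% to 12.47% of fibroblast counts. FB Sham 2 stood apart with the highest mitochondrial share and a summed macrophage level of 871.6 CPM against 17.9 to 68.0 CPM in the other fibroblast libraries. Summed over the 20 genes of the endothelial identity list, FB Sham 1 to 4 held 1100.0, 792.0, 325.0 and 210.6 CPM, against 15869 to 16073 CPM in ECs. Summed over the 20 genes of the fibroblast identity list, EC Sham 1 to 4 held 1574, 2893, 1027 and 1559 CPM, against 45464 to 63899 CPM in fibroblasts. The level of each list in the other population was 3.80% for endothelial genes in fibroblasts and 3.46% for fibroblast genes in ECs, so that small values of a gene in the other population cannot be told apart from admixed cells. In such sorted bulk samples, fewer cells of a type and less RNA per cell cannot be told apart either. The sheet numbers recorded for the samples were 16, 20, 23 and 29 for the EC Sham libraries and 1, 2, 4 and 56 for the FB Sham libraries. What these numbers order is not known here, and their part in the differences was not tested.

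Of 35682 genes in the table, 10659 had enough counts to be tested. At a false discovery rate (FDR) below 0.05, 1912 genes were higher in ECs (17.9% of those tested) and 2158 were higher in fibroblasts (20.2%), while 6589 did not pass. These shares are the background for every count of list members given below. A difference of at least 4-fold that passed the FDR was found for 729 genes higher in ECs (6.84%) and 820 higher in fibroblasts (7.69%), and one of at least 16-fold for 259 and 300 genes. The 4 EC and 4 fibroblast libraries did not overlap for 1888 genes with ECs above (17.7%) and 2079 genes with fibroblasts above (19.5%). Log2 fold changes are given throughout as ECs over fibroblasts, so that negative values are higher in fibroblasts. Their median over all tested genes was -0.04, with the middle of the distribution (25th to 75th percentile) from -0.62 to 0.48. The first principal component, which separated the populations, held 75.7% of the variance.

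**Figure D1:**
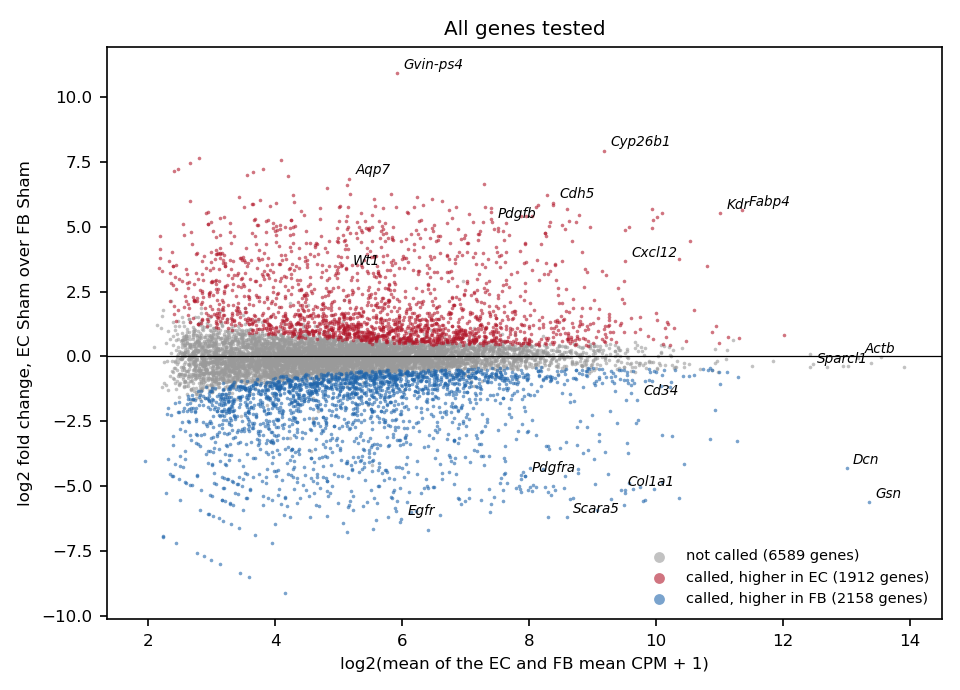
Log2 fold change of ECs over fibroblasts (vertical axis) against the mean expression of each of the 10659 tested genes over both populations (horizontal axis, log2(mean CPM + 1)), 1 point per gene. Colored points passed an FDR below 0.05: 1912 genes lie higher in ECs and 2158 higher in fibroblasts, and the grey points are the 6589 that did not pass.

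The genes that the study itself lists as markers checked the labels. Kdr, the main VEGF receptor of ECs (chromosome 5, 76093487 to 76139884, GRCm39), had 3741, 3673, 4573 and 4139 CPM in the EC libraries and 189.9, 125, 17.95 and 11.6 CPM in FB Sham 1 to 4 (log2 fold change 5.55 with SE 0.98, FDR = 0.00368). Cdh5 (chromosome 8, 104828231 to 104871143), which encodes VE-cadherin, had 609, 593, 758 and 652 CPM in ECs and 28.8, 13.4, 0 and 0 CPM in fibroblasts (log2 fold change 5.94 with SE 1.05, FDR = 0.00401). The 2 fibroblast libraries with the most Kdr also held the most Cdh5. Pecam1 itself, whose protein set the gate, had 1849.6, 2118, 1849 and 1798 CPM in ECs and 103, 114, 18.4 and 11.6 CPM in fibroblasts, which shows how well the sort held and is no finding. Fabp4, Vwf and Nos3 also lay higher in every EC library than in any fibroblast library. Among the fibroblast markers, Col1a1, the main chain of collagen I, had 37.004, 64.1, 20.2 and 30.9 CPM in ECs and 1339.8, 1220.1, 1262 and 1591 CPM in fibroblasts (log2 fold change -5.14 with SE 0.31, FDR = 1.21e-08). Dcn, which encodes the proteoglycan decorin (chromosome 10, 97315275 to 97358155), had 589, 1287, 483 and 809.6 CPM in ECs and 14849, 13525, 15747 and 18410.2 CPM in fibroblasts (log2 fold change -4.302 with SE 0.31, FDR = 4.25e-08). Thy1, the other gate gene, had 6.42 to 10.5 CPM in ECs and 45.8 to 64.8 CPM in fibroblasts. These groups were far apart for both matrix genes. Itgb1 went the other way: this integrin beta chain had 635, 731, 704 and 703 CPM in ECs and 556, 383, 473 and 489 CPM in fibroblasts (log2 fold change 0.54 with SE 0.17, FDR = 0.0162). Vim, an intermediate filament gene, was higher in fibroblasts by only 0.75 on the log2 scale (FDR = 0.00869). Leaving out 1 library moved the fold by more than 1.5 times, to log2 values as given, for Kdr (6.33 without FB Sham 1) and Cdh5 (7.297 without FB Sham 1).

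**Figure D2:**
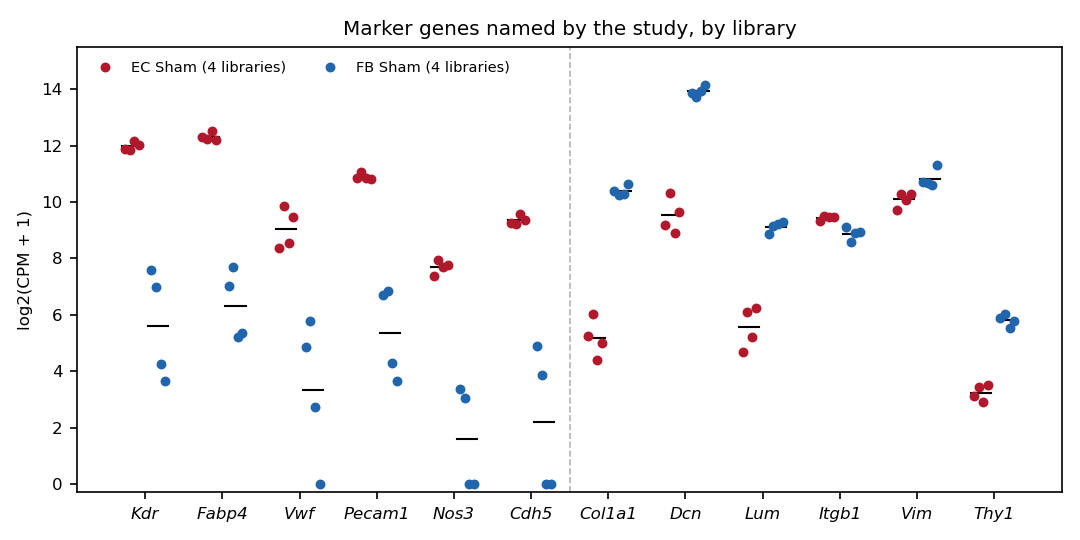
Expression of the 12 marker genes named by the study in each of the 8 Sham libraries (vertical axis, log2(CPM + 1); 1 point per library, ECs and fibroblasts in separate colors). The 6 EC markers lie higher in ECs, 5 of the 6 fibroblast markers lie higher in fibroblasts, and Itgb1 lies higher in ECs.

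All 20 genes of the endothelial identity list were tested and all 20 were higher in ECs, with a median log2 fold change of 5.20 against -0.04 for all tested genes. Members of this and every other gene list were chosen with earlier results of these data known. Such counts and medians therefore describe the lists and are no test of them. Cldn5, the tight junction claudin of ECs, had 46.4, 23.003, 46.9 and 21.7 CPM in ECs, and FB Sham 2 alone among the fibroblast libraries held reads of it, at 0.960 CPM (count ratio 164, exact 95% interval 44.8 to 1359, FDR = 1.99e-07). Robo4, an endothelial guidance receptor, had 261, 278, 255 and 236 CPM in ECs and 15.01, 7.1996, 0.472 and 0 CPM in fibroblasts (log2 fold change 5.49 with SE 0.77, FDR = 7.23e-04). Clec14a, a lectin of the vessel wall, had 93.4, 101, 132 and 113 CPM in ECs and 2.84, 5.76, 2.83 and 2.24 CPM in fibroblasts (log2 fold change 5.01 with SE 0.29, FDR = 6.59e-09). Of these genes Clec14a was the one with an even low level in all fibroblast libraries. Emcn, a sialomucin of capillaries and veins, had 554, 691, 618 and 629 CPM in ECs and 27.996, 35.998, 4.25 and 0 CPM in fibroblasts (log2 fold change 5.21 with SE 0.94, FDR = 0.00428). Icam2, a leukocyte adhesion molecule, had 220.3, 336, 311 and 333 CPM in ECs and 12.6, 19.2, 1.42 and 0 CPM in fibroblasts (log2 fold change 5.201 with SE 0.82, FDR = 0.00166). Rasip1, a regulator of vessel lumens, was uneven among ECs, with 1142, 381, 421 and 430.1 CPM against 70.6, 22.1, 0.472 and 0 CPM in fibroblasts (log2 fold change 4.66 with SE 1.30, FDR = 0.0296). More than a 1.5-fold move in the fold itself (log2 values given) came with a single library left out for Robo4 (6.76 without FB Sham 1), Emcn (5.88 without FB Sham 2), Icam2 (6.02 without FB Sham 2) and Rasip1 (6.41 without FB Sham 1). The call was lost for Rasip1 without any of EC Sham 1, EC Sham 3, EC Sham 4, FB Sham 2 or FB Sham 3 (FDR = 0.0539 to 0.0791).

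The endothelial list fell into a shared pattern and an exception within fibroblasts. In FB Sham 4, 11 of the 20 genes had no read at all, and in FB Sham 3, 4 of 20 had none, whereas at most 1 gene was at 0 in FB Sham 1 or FB Sham 2. Tek, the receptor for angiopoietins, did not follow this order, with 125, 96.95, 82.7 and 108 CPM in FB Sham 1 to 4 against 261, 326, 198 and 319 CPM in ECs (log2 fold change 1.42 with SE 0.20, FDR = 3.90e-05). Eng, a co-receptor of the TGF-beta family, had 56.8, 57.1, 50.1 and 33.9 CPM in fibroblasts and 277, 345, 303 and 401 CPM in ECs (log2 fold change 2.75 with SE 0.21, FDR = 7.51e-08). Esam, a junction molecule, likewise kept 47.7 to 127 CPM in all fibroblast libraries against 857 to 902 CPM in ECs (log2 fold change 3.25 with SE 0.25, FDR = 8.62e-08). Their levels in FB Sham 4, where Cdh5, Nos3 and Emcn were at 0, were thus well above the 1.12 CPM that 3 counts were worth there. Without FB Sham 1 and FB Sham 2 the median of the list rose to 8.46, and it was 4.81 to 6.09 with any single library left out. Over the 5 members with at least 10 counts in every library it was 3.23. The size of an endothelial fold thus depends on these libraries and on the filter, while no direction changed.

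All 20 genes of the fibroblast identity list were tested and all 20 were higher in fibroblasts, with a median log2 fold change of -4.96. Its median was -4.80 to -5.22 under the processing alternatives that tested all 20 genes. It was -4.71 over the 14 members with at least 10 counts in every library. Gsn, which encodes the actin-severing protein gelsolin, had the highest mean level in fibroblasts among tested genes not encoded by mitochondrial DNA. It had 14993, 22491, 16118 and 28669 CPM in fibroblasts and 392, 814, 193 and 266 CPM in ECs (log2 fold change -5.62 with SE 0.49, FDR = 2.94e-06). Pdgfra, the receptor that marks resident fibroblasts, had 471, 349, 442 and 616 CPM in fibroblasts and 20.6, 23.98, 15.3 and 15.4 CPM in ECs (log2 fold change -4.63 with SE 0.24, FDR = 3.34e-09). Tcf21, a transcription factor of the fibroblast lineage, had 12.98, 40.3, 22.7 and 73.8 CPM in fibroblasts and 0, 0.489, 3.95 and 0 CPM in ECs (log2 fold change -4.86 with SE 0.80, FDR = 2.44e-04). It was uneven among fibroblasts, which did not overlap with ECs. Pi16 and Dpep1 mark fibroblasts of the outer vessel wall in several tissues. Pi16 had 486, 403, 544 and 375 CPM in fibroblasts and 11.7, 30.8, 6.91 and 18.2 CPM in ECs (log2 fold change -4.73 with SE 0.35, FDR = 1.84e-07), and Dpep1 had 1869, 923, 1266 and 845 CPM and 26.4, 51.9, 8.395 and 21.7 CPM (log2 fold change -5.49 with SE 0.52, FDR = 1.70e-05). Lum, a collagen-binding proteoglycan, was among the smaller differences of the list, with 463, 562, 603 and 619.9 CPM in fibroblasts and 24.7, 67.5, 36.1 and 75.1 CPM in ECs (log2 fold change -3.47 with SE 0.30, FDR = 5.57e-07). The folds that single libraries moved by over 1.5 times, given here as log2, were those of Tcf21 (-7.21 without EC Sham 3 and -4.27 without FB Sham 4).

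Promoters of the identity genes were read from the GRCm39 genome as 250 bases before and 50 bases from the annotated start of the canonical transcript, for 10631 of the 10659 tested genes. Shown are 3 endothelial promoters that hold the letters CAGGAAG, a core that ETS transcription factors such as Erg and Fli1 can bind, and 1 collagen promoter that holds TATAAA. The letters are printed 5′ to 3′ on the strand of the gene, in lower case, with every match in capitals: CAGGAAG (or CTTCCTG where it lies on the other strand), TATAAA, and CCAAT (or ATTGG on the other strand).
Robo4, chr9:37312943-37313242, plus strand: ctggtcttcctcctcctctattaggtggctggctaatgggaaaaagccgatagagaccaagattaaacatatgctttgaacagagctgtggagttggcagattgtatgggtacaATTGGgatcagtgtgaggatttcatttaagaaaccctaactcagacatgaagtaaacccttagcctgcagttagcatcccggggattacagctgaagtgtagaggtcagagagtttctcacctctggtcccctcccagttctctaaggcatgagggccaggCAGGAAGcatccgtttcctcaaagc
Emcn, chr3:137046544-137046843, plus strand: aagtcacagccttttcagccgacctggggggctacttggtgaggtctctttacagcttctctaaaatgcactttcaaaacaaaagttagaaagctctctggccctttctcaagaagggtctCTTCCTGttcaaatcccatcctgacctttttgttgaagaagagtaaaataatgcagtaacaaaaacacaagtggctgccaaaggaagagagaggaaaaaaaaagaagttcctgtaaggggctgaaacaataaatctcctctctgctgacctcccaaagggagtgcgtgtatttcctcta
Icam2, chr11:106273558-106273857, minus strand: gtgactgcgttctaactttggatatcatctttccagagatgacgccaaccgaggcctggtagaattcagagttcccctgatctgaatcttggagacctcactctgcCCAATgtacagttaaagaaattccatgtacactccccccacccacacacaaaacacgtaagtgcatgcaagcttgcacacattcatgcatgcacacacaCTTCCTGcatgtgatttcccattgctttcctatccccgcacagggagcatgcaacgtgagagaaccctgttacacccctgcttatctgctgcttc
Col3a1, chr1:45350448-45350747, plus strand: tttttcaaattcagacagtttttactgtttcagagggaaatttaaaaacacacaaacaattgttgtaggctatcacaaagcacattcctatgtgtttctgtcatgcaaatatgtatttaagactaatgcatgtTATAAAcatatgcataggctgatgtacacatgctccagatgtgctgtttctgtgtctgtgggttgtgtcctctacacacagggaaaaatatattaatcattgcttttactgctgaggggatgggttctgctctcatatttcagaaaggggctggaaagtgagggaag
CAGGAAG stood in the promoters of 9 of 20 endothelial identity genes on either strand (Ecscr, Egfl7, Emcn, Icam2, Mmrn2, Ptprb, Rasip1, Robo4 and Vwf) and of 2 of 20 fibroblast identity genes (Cd248 and Islr), against 12.2% of all tested promoters. Among genes at least 4-fold higher in ECs its share was 14.5%, and among those at least 4-fold higher in fibroblasts 12.3%, so beyond the short list the share lay near that of all promoters. The related letters CCGGAAG were in 15.9% of all tested promoters, in 5.08% of those 4-fold higher in ECs and 3.05% of those 4-fold higher in fibroblasts, and in none of either identity list. TATAAA was in 7.86% of all promoters, 9.19% of the 4-fold EC set and 10.9% of the 4-fold fibroblast set, and in 3 of 12 tested collagen genes (Col3a1 among them). CCAAT was in 39.03% of all promoters, 35.9% and 33.7% of the 4-fold sets, and 5 of 12 collagen genes. All motifs were searched on both strands, CAGGAAG and CCGGAAG share the letters GGAAG at their end, and a match describes letters only.

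Ranked by size among genes with no overlap and at least 50 CPM in the higher population, the 15 genes furthest toward ECs were Gvin-ps4, Cyp26b1, Aqp7, Ceacam1, Sox7, Shank3, Wscd1, Aplnr, Cyyr1, Slc26a10, Nova2, Slc28a2, Myct1, Cdh5 and Ushbp1. Gvin-ps4 had 145, 96.4, 114 and 119 CPM in ECs and no read in fibroblasts, which makes it at least 82.4-fold higher in ECs against a floor of 3 counts in each library. It is a pseudogene of a multigene family, so its counts are uncertain. Cyp26b1 encodes an enzyme that breaks down retinoic acid, and had 3837, 265, 338 and 199 CPM in ECs and 9.74, 8.16, 0.945 and 0 CPM in fibroblasts (log2 fold change 7.95 with SE 1.68, FDR = 0.00994). Its level in EC Sham 1 was far above that in the other EC libraries, and all 4 lay above the fibroblasts, as the selection required. Aqp7, a channel for water and glycerol, had 52.9, 51.9, 108 and 64.5 CPM in ECs and 1.22, 0.480, 0.472 and 0 CPM in fibroblasts (log2 fold change 6.86 with SE 0.47, FDR = 3.82e-09). Ceacam1, a cell adhesion molecule, had 194, 361, 363 and 309 CPM in ECs and 8.52, 2.88, 0.472 and 0 CPM in fibroblasts (log2 fold change 6.65 with SE 0.65, FDR = 3.45e-05). Shank3, a scaffold protein best known from synapses, had 55.2, 54.8, 68.2 and 37.9 CPM in ECs and 2.03, 0, 0 and 0 CPM in fibroblasts (log2 fold change 6.52 with SE 0.62, FDR = 1.06e-07). Nova2, an RNA-binding splicing regulator, had 72.8, 76.8, 126 and 86.99 CPM in ECs and 3.25, 1.44, 0 and 0.373 CPM in fibroblasts (log2 fold change 6.08 with SE 0.46, FDR = 5.26e-08). Among ECs, Nova2 was highest in EC Sham 3. Slc28a2, a nucleoside carrier, had 154, 149, 211 and 174 CPM in ECs and 2.84, 7.1996, 0.472 and 0 CPM in fibroblasts (log2 fold change 6.07 with SE 0.53, FDR = 2.93e-06). Single libraries moved the fold over 1.5 times, with the log2 value given, for Cyp26b1 (5.84 without EC Sham 1 and 8.701 without FB Sham 1), Aqp7 (7.65 without FB Sham 1), Ceacam1 (8.17 without FB Sham 1), Shank3 (9.79 without FB Sham 1), Nova2 (7.17 without FB Sham 1) and Slc28a2 (7.25 without FB Sham 2).

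The 15 genes furthest toward fibroblasts were Galnt16, Entpd2, Gfra1, Hmcn2, Frzb, Cilp, Egfr, Scara5, Clec3b, Mme, Ssc5d, Dclk1, Cd248, Myoc and Adamtsl2. Galnt16, a glycosyltransferase, had 62.1, 60.96, 81.3 and 66.7 CPM in fibroblasts and 0, 1.96, 0 and 0 CPM in ECs (log2 fold change -6.79 with SE 0.57, FDR = 2.03e-08). Entpd2, an enzyme that cleaves extracellular ATP, had 84.8, 173, 135 and 274 CPM in fibroblasts and 0, 1.96, 0.988 and 3.51 CPM in ECs (log2 fold change -6.71 with SE 0.54, FDR = 3.05e-07). Its relative Entpd1, described below, lay on the endothelial side. Gfra1, the co-receptor for the growth factor GDNF, had 91.3, 76.8, 71.3 and 120.0 CPM in fibroblasts and 0, 1.47, 0 and 2.10 CPM in ECs (log2 fold change -6.65 with SE 0.50, FDR = 1.18e-08). Frzb, a secreted Wnt inhibitor, had 123, 120.0, 122 and 121 CPM in fibroblasts and 1.76, 0.979, 0.988 and 2.10 CPM in ECs (log2 fold change -6.38 with SE 0.28, FDR = 8.91e-10). Cilp, a matrix protein, had 68.98, 99.4, 94.5 and 109 CPM in fibroblasts and 0.587, 2.45, 0 and 1.40 CPM in ECs (log2 fold change -6.31 with SE 0.42, FDR = 6.59e-09). That fibroblast libraries exceeded every EC library for all of these was set by the selection. Egfr, the epidermal growth factor receptor, had 135, 109, 125 and 124 CPM in fibroblasts and 4.70, 1.47, 0 and 0 CPM in ECs (log2 fold change -6.27 with SE 0.49, FDR = 1.11e-07). Mme, the peptidase neprilysin, had 148, 77.3, 108 and 89.5 CPM in fibroblasts and 1.76, 0.979, 0.494 and 2.81 CPM in ECs (log2 fold change -6.18 with SE 0.38, FDR = 5.29e-09). A fold that moved over 1.5 times on leaving out 1 library, here on the log2 scale, was found for Galnt16 (-10.13 without EC Sham 2), Gfra1 (-7.27 without EC Sham 4), Cilp (-7.16 without EC Sham 2) and Egfr (-7.67 without EC Sham 1).

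Genes of the capillary lipid uptake list were mostly endothelial: of 17 tested, 14 were higher in ECs, 2 were higher in fibroblasts and 1 did not pass, with a median log2 fold change of 4.95. The list also holds capillary genes outside lipid handling, such as Timp4, Kcna5, Car4, Aqp1, Btnl9 and Rgcc, all higher in ECs. Its count and median therefore do not speak for lipid uptake alone. The members higher in fibroblasts were Lpl and Slc27a4. Fabp4, a fatty acid carrier of the cytosol (chromosome 3, 10268785 to 10273737), had 5100.1, 4855, 5836 and 4736 CPM in ECs and 129, 205, 36.4 and 39.5 CPM in fibroblasts (log2 fold change 5.65 with SE 0.61, FDR = 7.44e-05). Cd36, the fatty acid uptake receptor, had 1875, 2052, 2070.2 and 1713 CPM in ECs and 92.5, 39.8, 14.6 and 3.73 CPM in fibroblasts (log2 fold change 5.67 with SE 0.88, FDR = 0.00181). Gpihbp1, which holds lipoprotein lipase on the capillary wall, had 784, 729, 751 and 594 CPM in ECs and 62.1, 19.7, 2.36 and 0 CPM in fibroblasts (log2 fold change 5.08 with SE 1.12, FDR = 0.0115). The lipase itself lay on the other side. Lpl had 1545, 1568, 1349.7 and 1963 CPM in fibroblasts and 585, 999, 945 and 677 CPM in ECs (log2 fold change -1.002 with SE 0.20, FDR = 0.00103), with no overlap. Fabp5, a second carrier, had 879 to 1199.7 CPM in ECs and 98.8 to 158 CPM in fibroblasts (log2 fold change 3.13 with SE 0.20, FDR = 1.66e-08). Meox2 and Tcf15, which encode transcription factors of heart capillaries, were higher in ECs by 2.8002 and 4.56 on the log2 scale. Pparg, a lipid-sensing receptor, had 27.4 to 42.97 CPM in ECs and 0 to 3.25 CPM in fibroblasts (log2 fold change 4.95 with SE 0.56, FDR = 2.15e-06). Angptl4, an inhibitor of the lipase, had 8.32 to 25.96 CPM in ECs and 6.90 to 46.6 CPM in fibroblasts and did not pass (FDR = 0.320). Moves of the fold by over 1.5 times on leaving out 1 library, as log2 values, were those of Fabp4 (6.27 without FB Sham 2), Cd36 (6.695 without FB Sham 1), Gpihbp1 (6.703 without FB Sham 1) and Pparg (6.65 without FB Sham 1).

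The EC gate held marker genes of several vessel types. Among arterial genes, 8 of 11 tested were higher in ECs (median 4.42), among venous genes 4 of 8 (1.88), among lymphatic genes 6 of 8 (4.14) and among endocardial genes 5 of 7 (3.34). Sox17, an arterial transcription factor, had 66.96, 83.2, 129 and 86.3 CPM in ECs and 5.27, 0.960, 0 and 0 CPM in fibroblasts (log2 fold change 5.79 with SE 0.60, FDR = 6.47e-06). Gja5, an arterial connexin, had only 0 to 3.43 CPM in ECs and was not tested. Prox1, the transcription factor that defines lymphatic ECs, had 83.4, 90.1, 56.3 and 104 CPM in ECs and 10.5, 2.40, 4.72 and 1.86 CPM in fibroblasts (log2 fold change 4.06 with SE 0.40, FDR = 1.24e-06). Ccl21a, a lymphatic chemokine whose reads can be shared with near-identical copies, had 203, 272, 138 and 242 CPM in ECs and 12.6, 8.16, 0 and 0 CPM in fibroblasts (log2 fold change 5.35 with SE 0.82, FDR = 0.00133). Reads of a lymphatic set were therefore present in every EC library. Npr3, a natriuretic peptide receptor of the endocardium, had 261, 498, 240.0 and 369.7 CPM in ECs and 44.6, 27.8, 12.8 and 7.08 CPM in fibroblasts (log2 fold change 3.89 with SE 0.53, FDR = 3.25e-04). Among genes of the same lists, Pdpn, known from lymphatic ECs and from stroma, was higher in fibroblasts, at 192 to 251 CPM against 14.8 to 27.9 CPM in ECs (log2 fold change -3.33 with SE 0.22, FDR = 2.01e-08). Ackr1, a chemokine decoy receptor of venules, had 6.49 to 13.4 CPM in fibroblasts and 0 to 0.702 CPM in ECs, and its total counts were higher in fibroblasts (count ratio 38.1, exact 95% interval 10.3 to 319, FDR = 2.18e-05). Lyve1, a hyaluronan receptor of lymphatic ECs and some macrophages, had 204, 255, 134 and 275 CPM in ECs and 20.7, 86.4, 9.45 and 0 CPM in fibroblasts and did not pass (FDR = 0.0724), with its highest fibroblast value in FB Sham 2. Nr2f2, which specifies venous identity, had 178 to 320.1 CPM in ECs and 163 to 309 CPM in fibroblasts, with overlap (FDR = 0.375). The count of 4 venous genes was 2 without EC Sham 2. Leaving out 1 library moved the fold by more than 1.5 times, to log2 values as given, for Sox17 (8.05 without FB Sham 1), Prox1 (4.83 without FB Sham 1), Ccl21a (6.399 without FB Sham 1) and Npr3 (4.48 without FB Sham 1). The call was gained for Lyve1 without FB Sham 2 (log2 fold change 4.47, FDR = 0.00679) and Lyve1 without FB Sham 4 (log2 fold change 2.496, FDR = 0.0376).

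Junction and adhesion genes were higher in ECs for 18 of 25 tested and in fibroblasts for 2, with a median of 2.41. F11r, the junction molecule JAM-A, had 262, 237, 264 and 225 CPM in ECs and 18.7, 23.5, 5.20 and 1.12 CPM in fibroblasts (log2 fold change 4.36 with SE 0.62, FDR = 5.08e-04). Tjp1, which encodes the tight junction scaffold ZO-1, had 462, 224, 311 and 229 CPM in ECs and 111, 40.8, 40.2 and 41.7 CPM in fibroblasts (log2 fold change 2.39 with SE 0.38, FDR = 3.44e-04). Cdh2, or N-cadherin, was higher in fibroblasts, at 11.2 to 23.6 CPM against 2.45 to 6.46 CPM (log2 fold change -1.57 with SE 0.43, FDR = 0.00892). Cdh11, a cadherin often used to mark mesenchymal cells, lay on the endothelial side here, with 43.5, 117, 82.5 and 135 CPM in ECs and 13.4, 22.1, 7.09 and 26.8 CPM in fibroblasts (log2 fold change 2.43 with SE 0.41, FDR = 4.13e-04). Cd34, used to mark both ECs and stromal progenitors, was higher in fibroblasts, with 1278, 1182, 1434 and 1159 CPM against 442, 383, 413 and 357 CPM in ECs (log2 fold change -1.66 with SE 0.16, FDR = 9.30e-07). For neither of these genes did the libraries of the populations overlap. Icam1, the leukocyte adhesion molecule, had 122, 168, 90.4 and 96.8 CPM in ECs and 45.8, 53.3, 28.3 and 45.8 CPM in fibroblasts (log2 fold change 1.46 with SE 0.25, FDR = 1.84e-04). Vcam1, its counterpart, had 162 to 346 CPM in ECs and 171 to 199 CPM in fibroblasts, with overlap (FDR = 0.266).

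Caveolae, the membrane pits that are dense in capillary ECs, were represented by 9 tested genes, 6 higher in ECs and 2 in fibroblasts. Cav1, the coat protein of the pits, had 479, 926, 1026 and 876 CPM in ECs and 24.3, 48.96, 9.45 and 9.32 CPM in fibroblasts (log2 fold change 5.18 with SE 0.57, FDR = 8.19e-05). Cavin2 had 4072, 3169, 2984 and 2848 CPM in ECs and 378, 299.5, 299 and 181 CPM in fibroblasts (log2 fold change 3.498 with SE 0.24, FDR = 2.74e-08). Its relative Cavin3 was higher in fibroblasts, at 172 to 313 CPM against 91.6 to 125 CPM (log2 fold change -0.999 with SE 0.21, FDR = 0.00128), and Cavin1 differed less, at 1759 to 3948 CPM in ECs and 887 to 1868 CPM in fibroblasts (log2 fold change 0.93 with SE 0.28, FDR = 0.0162). The cavin genes therefore split between the populations. More than a 1.5-fold move in the fold itself (log2 values given) came with a single library left out for Cav1 (5.87 without FB Sham 2). Calls that did not hold were those of Cavin1 without EC Sham 1 (FDR = 0.0527).

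Transcription factors known from ECs were higher in ECs for 22 of 25 tested and in fibroblasts for none, with a median of 2.82. Erg, an ETS factor needed for endothelial identity, had 116, 108, 79.02 and 84.2 CPM in ECs and 7.71, 5.76, 0 and 0 CPM in fibroblasts (log2 fold change 4.84 with SE 0.63, FDR = 1.32e-04). Fli1, another ETS factor, had 333, 424, 431 and 311 CPM in ECs and 19.5, 32.2, 20.8 and 20.1 CPM in fibroblasts (log2 fold change 4.02 with SE 0.22, FDR = 5.02e-09). Sox7 had 35.8, 80.3, 103 and 50.5 CPM in ECs and 0.811, 0.480, 0.472 and 0.746 CPM in fibroblasts (log2 fold change 6.598 with SE 0.44, FDR = 3.82e-09). For Sox7, no fibroblast library reached the level of 3 counts, and Fli1 stayed at 19.5 to 32.2 CPM. Klf2, which responds to blood flow, had 1049.6 to 1907 CPM in ECs and 381 to 627 CPM in fibroblasts (log2 fold change 1.67 with SE 0.23, FDR = 2.60e-05). Klf4, its relative, was much closer, at 2087 to 2965 CPM in ECs and 1429.8 to 2202 CPM in fibroblasts (log2 fold change 0.53 with SE 0.19, FDR = 0.0411), with overlap. Foxo1, which restrains vessel growth, had 177 to 226 CPM in ECs and 191 to 231 CPM in fibroblasts, with overlap (FDR = 0.957). The folds that single libraries moved by over 1.5 times, given here as log2, were those of Erg (5.76 without FB Sham 1). Leave-one-out fits lost the call of Klf4 without any of EC Sham 1, EC Sham 2, EC Sham 4, FB Sham 2, FB Sham 3 or FB Sham 4 (FDR = 0.0536 to 0.118).

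Mesenchymal transcription factors were higher in fibroblasts for 17 of 24 tested and in ECs for 2, with a median of -1.87. Prrx1, a homeobox factor of connective tissue, had 185, 158, 187 and 229 CPM in fibroblasts and 8.22, 12.2, 2.47 and 4.91 CPM in ECs (log2 fold change -4.74 with SE 0.33, FDR = 3.06e-08). Ebf2 had 407, 321, 404 and 377 CPM in fibroblasts and 21.1, 20.6, 12.3 and 11.9 CPM in ECs (log2 fold change -4.503 with SE 0.23, FDR = 3.19e-09), whereas its relative Ebf1 had 502 to 607 CPM in fibroblasts and 431 to 502 CPM in ECs and did not pass (FDR = 0.186). Tbx20, a cardiac T-box factor, had 182, 281, 241 and 359 CPM in fibroblasts and 13.5, 34.8, 13.8 and 21.7 CPM in ECs (log2 fold change -3.65 with SE 0.31, FDR = 3.68e-07). Wt1, known from the epicardium and listed among mesenchymal genes, was higher in ECs in every library, with 73.4, 46.99, 75.6 and 51.2 CPM against 6.09, 8.16, 4.25 and 5.22 CPM in fibroblasts (log2 fold change 3.38 with SE 0.29, FDR = 2.29e-07). Nfib, a nuclear factor I gene, was also higher in ECs (log2 fold change 0.496 with SE 0.17, FDR = 0.0327), while Nfia (log2 fold change -1.01 with SE 0.17, FDR = 1.60e-04) and Nfix (log2 fold change -2.27 with SE 0.18, FDR = 1.13e-07) were higher in fibroblasts. Snai2, an epithelial-to-mesenchymal regulator, had 42.97 to 47.96 CPM in ECs and 35.04 to 42.1 CPM in fibroblasts and did not pass (FDR = 0.383). No longer past the FDR were Nfib without any of EC Sham 2, EC Sham 3, EC Sham 4, FB Sham 1 or FB Sham 3 (FDR = 0.0535 to 0.0905).

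The interstitial collagens were all on the fibroblast side: 12 of 13 listed genes were tested and 12 were higher in fibroblasts, with a median of -5.00. Col3a1, the chain of collagen III, had 1111, 1653, 1447 and 2469 CPM in fibroblasts and 50.5, 88.6, 23.2 and 38.6 CPM in ECs (log2 fold change -5.05 with SE 0.42, FDR = 1.93e-06). Col6a3, of the microfibrillar collagen VI, had 422, 553, 484 and 583 CPM in fibroblasts and 17.03, 20.1, 9.38 and 9.12 CPM in ECs (log2 fold change -5.18 with SE 0.27, FDR = 3.19e-09). Col5a2, which nucleates collagen fibrils, showed the smallest difference of the set, with 207, 184, 177 and 314 CPM in fibroblasts and 18.2, 46.99, 28.1 and 42.8 CPM in ECs (log2 fold change -2.69 with SE 0.29, FDR = 2.45e-06). EC Sham 2 held the highest EC level of each of these 3 genes, and it also held the highest summed fibroblast identity level.

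Of 27 tested matrix glycoprotein and proteoglycan genes, 25 were higher in fibroblasts, none was higher in ECs and 2 did not pass, with a median of -3.08. Smoc2, a calcium-binding matrix protein, had 1007, 1002, 895 and 1308 CPM in fibroblasts and 16.4, 34.8, 9.38 and 7.72 CPM in ECs (log2 fold change -5.91 with SE 0.40, FDR = 1.56e-07). Mfap4, a microfibril protein, had 1 read over all EC libraries and 11.8, 17.3, 9.92 and 24.6 CPM in fibroblasts (count ratio 117, exact 95% interval 20.7 to 4652, FDR = 1.65e-05). Fbn1, the fibrillin of elastic microfibrils, had 856 to 1186 CPM in fibroblasts and 82.5 to 125 CPM in ECs (log2 fold change -3.27 with SE 0.19, FDR = 7.73e-09). Eln, or elastin, differed less, at 333 to 478 CPM in fibroblasts and 81.6 to 220.2 CPM in ECs (log2 fold change -1.49 with SE 0.28, FDR = 6.15e-04). Postn, a protein of remodeling matrix, was low in both, at 54.2 to 82.01 CPM in fibroblasts and 12.3 to 26.9 CPM in ECs (log2 fold change -1.79 with SE 0.27, FDR = 5.82e-05). Fn1, which encodes fibronectin, was the marked exception, with 86.8, 138, 158 and 133 CPM in fibroblasts and 63.4, 150.3, 121 and 130.5 CPM in ECs, and the libraries overlapped (log2 fold change -0.15 with SE 0.25, FDR = 0.690). Sparcl1, a matricellular gene, was among the genes with the most counts in both populations, at 4322 to 8172 CPM in fibroblasts and 3516 to 6905 CPM in ECs, with overlap (FDR = 0.224). Single libraries moved the fold over 1.5 times, with the log2 value given, for Smoc2 (-6.54 without EC Sham 2).

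Enzymes that process and cross-link collagen were higher in fibroblasts for 13 of 17 tested and in ECs for 1, with a median of -1.68. Pcolce2, an enhancer of procollagen cleavage, had 693, 720.4, 778 and 940.1 CPM in fibroblasts and 15.3, 31.8, 8.89 and 12.6 CPM in ECs (log2 fold change -5.49 with SE 0.33, FDR = 1.66e-08). Loxl1, a cross-linking enzyme, had 794, 730.0, 869.7 and 822 CPM in fibroblasts and 25.8, 32.8, 5.43 and 7.02 CPM in ECs (log2 fold change -5.47 with SE 0.47, FDR = 4.81e-06). Plod1, a lysyl hydroxylase, was the one on the endothelial side, with 323, 249.6, 286 and 287 CPM in ECs and 187, 129, 154 and 80.1 CPM in fibroblasts (log2 fold change 1.06 with SE 0.22, FDR = 0.00137). Plod2 (FDR = 0.0607), Plod3 (FDR = 0.469) and P4ha2 (FDR = 0.876) did not pass. Serpinh1, the collagen chaperone, had 168 to 377 CPM in fibroblasts and 70.5 to 206 CPM in ECs, with overlap (log2 fold change -0.9999 with SE 0.31, FDR = 0.0219). The call was lost for Serpinh1 without any of EC Sham 2, EC Sham 3, FB Sham 2 or FB Sham 4 (FDR = 0.0510 to 0.0642) and P4ha1 without any of EC Sham 1, EC Sham 2, EC Sham 3, FB Sham 1, FB Sham 2 or FB Sham 4 (FDR = 0.0581 to 0.0915). A call appeared for Plod2 without EC Sham 4 (log2 fold change -0.75, FDR = 0.0303) and Plod2 without FB Sham 1 (log2 fold change -0.701, FDR = 0.0274).

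Basement membrane genes were shared out: of 19 tested, 12 were higher in fibroblasts, 3 were higher in ECs and 4 did not pass, with a median of -1.24. Lama2, the laminin alpha chain of muscle, had 536, 395, 451 and 625 CPM in fibroblasts and 18.8, 27.4, 4.44 and 9.12 CPM in ECs (log2 fold change -5.05 with SE 0.42, FDR = 1.66e-06). Lama5, a laminin chain of mature vessels, lay on the endothelial side, with 22.3, 32.8, 34.1 and 25.96 CPM in ECs and 0.406, 5.76, 0.945 and 2.61 CPM in fibroblasts (log2 fold change 3.58 with SE 0.46, FDR = 1.57e-05). Lama4, the other vascular chain, had 549.6 to 1059.8 CPM in fibroblasts and 439 to 564 CPM in ECs (log2 fold change -0.74 with SE 0.20, FDR = 0.00722). The laminin alpha chains therefore ran in different directions. Col4a1, the main collagen IV chain, had 1205, 1122, 1227 and 1035 CPM in ECs and 1071, 802, 1035 and 1160.0 CPM in fibroblasts and did not pass (log2 fold change 0.17 with SE 0.17, FDR = 0.459). Its partner Col4a2 was higher in ECs, with 639.6, 489.9, 545 and 475 CPM against 346, 320.1, 315 and 325 CPM in fibroblasts (log2 fold change 0.72 with SE 0.16, FDR = 0.00212). Nid1, which links laminin to collagen IV, had 889 to 2038 CPM in fibroblasts and 222 to 287 CPM in ECs (log2 fold change -2.45 with SE 0.24, FDR = 8.14e-07). Hspg2, or perlecan, had 486 to 801 CPM in ECs and 439 to 670.0 CPM in fibroblasts, with overlap (FDR = 0.217). A fold that moved over 1.5 times on leaving out 1 library, here on the log2 scale, was found for Lama5 (4.39 without FB Sham 2). Calls that did not hold were those of Col4a3 without any of EC Sham 1, EC Sham 3, FB Sham 1, FB Sham 3 or FB Sham 4 (FDR = 0.0505 to 0.0824) and Lamb2 without any of EC Sham 1, EC Sham 3, EC Sham 4, FB Sham 1, FB Sham 2 or FB Sham 3 (FDR = 0.0502 to 0.0898).

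Matrix proteases and their inhibitors were higher in fibroblasts for 14 of 20 tested and in ECs for 5, with a median of -2.86. Mmp2, gelatinase A, had 732, 706, 771 and 693 CPM in fibroblasts and 20.6, 39.6, 10.4 and 14.03 CPM in ECs (log2 fold change -5.08 with SE 0.33, FDR = 5.17e-08). Mmp14, a membrane protease that activates it, had 303 to 429.9 CPM in fibroblasts and 25.8 to 39.3 CPM in ECs (log2 fold change -3.44 with SE 0.21, FDR = 8.01e-09). Mmp15, another membrane protease, lay on the endothelial side, with 82.2, 129.7, 122 and 97.5 CPM in ECs and 14.2, 10.1, 8.50 and 2.61 CPM in fibroblasts (log2 fold change 3.62 with SE 0.35, FDR = 8.87e-07). The membrane proteases thus differed in direction, as did the inhibitors. Timp2 had 6307, 3374, 4519 and 3753 CPM in fibroblasts and 448, 626, 269 and 519.9 CPM in ECs (log2 fold change -3.27 with SE 0.28, FDR = 2.68e-07). Timp1 had 19.9, 25.9, 11.3 and 20.9 CPM in fibroblasts and 0.489 to 2.35 CPM in ECs (log2 fold change -4.24 with SE 0.52, FDR = 3.44e-06). Timp4 had 287, 449.8, 285 and 215 CPM in ECs and 16.6, 5.76, 0 and 0 CPM in fibroblasts (log2 fold change 5.76 with SE 0.91, FDR = 0.00200), and Timp3 had 1606 to 1967 CPM in ECs and 987 to 1247 CPM in fibroblasts (log2 fold change 0.61 with SE 0.17, FDR = 0.00813). Adamts9, a versican-cleaving protease, was higher in ECs (log2 fold change 3.92 with SE 0.47, FDR = 6.00e-05), whereas its substrate Vcan had 456, 386, 487 and 459 CPM in fibroblasts and 13.5, 17.6, 6.42 and 14.7 CPM in ECs (log2 fold change -5.097 with SE 0.26, FDR = 3.19e-09). Moves of the fold by over 1.5 times on leaving out 1 library, as log2 values, were those of Timp1 (-5.01 without EC Sham 1), Timp4 (7.43 without FB Sham 1) and Adamts9 (4.51 without FB Sham 1).

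Among 12 tested integrins, 4 were higher in ECs, 6 were higher in fibroblasts and 2 did not pass. Itga6, a laminin receptor chain, had 953, 836, 1148 and 901 CPM in ECs and 58.4, 37.9, 14.6 and 10.1 CPM in fibroblasts (log2 fold change 4.99 with SE 0.51, FDR = 3.11e-05). Itga1, a collagen receptor chain, had 1186, 1195, 1222 and 1039.7 CPM in ECs and 246, 266, 414 and 199 CPM in fibroblasts (log2 fold change 2.04 with SE 0.22, FDR = 1.85e-06), whereas Itga11, a receptor chain for fibrillar collagen, had 32.5, 54.7, 48.7 and 35.4 CPM in fibroblasts and 1.76, 1.96, 6.42 and 0 CPM in ECs (log2 fold change -3.93 with SE 0.47, FDR = 5.93e-06). The collagen-binding alpha chains were therefore divided between the populations. Itgav had 57.6 to 71.9 CPM in fibroblasts and 13.7 to 24.6 CPM in ECs (log2 fold change -1.75 with SE 0.23, FDR = 1.71e-05), and its partners Itgb5 (log2 fold change -2.804 with SE 0.24, FDR = 2.09e-07) and Itgb8 (total counts higher in fibroblasts, count ratio 46.2, exact 95% interval 15.6 to 226, FDR = 1.32e-05) moved with it. Leaving out 1 library moved the fold by more than 1.5 times, to log2 values as given, for Itga6 (5.57 without FB Sham 1) and Itga11 (-4.92 without EC Sham 3). Leave-one-out fits lost the call of Itgb3 without any of EC Sham 1, EC Sham 2, EC Sham 4, FB Sham 2 or FB Sham 4 (FDR = 0.0554 to 0.114).

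**Figure D3:**
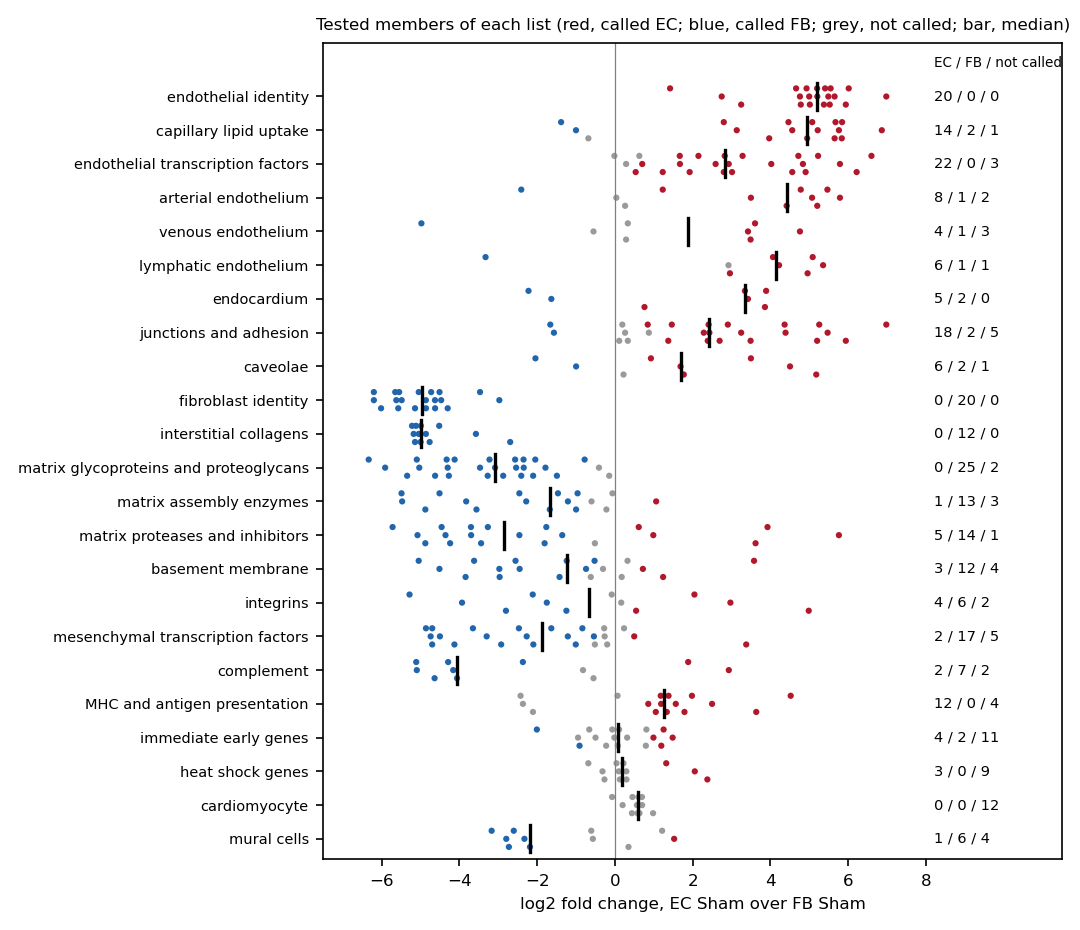
Log2 fold change of ECs over fibroblasts (horizontal axis) for every tested member of 23 gene lists (rows), 1 point per gene, with the numbers higher in ECs, higher in fibroblasts and not passing at an FDR below 0.05 at the side. All endothelial identity genes lie to the right of 0 and all collagens and matrix glycoproteins to the left. Most junction genes and endothelial transcription factors lie to the right, and basement membrane and integrin genes lie on both sides.

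Ligand and receptor genes were then read side by side. In the VEGF and angiopoietin family all 7 tested receptor genes were higher in ECs (median 4.22), while 6 of 9 ligand genes were higher in fibroblasts and 2 in ECs (median -1.95). Flt1, the high-affinity VEGF receptor, had 1749, 2497, 2162 and 2158 CPM in ECs and 130.2, 46.6, 7.09 and 1.49 CPM in fibroblasts (log2 fold change 5.53 with SE 1.18, FDR = 0.00968). Nrp1, a co-receptor, had 1031, 1135, 1275 and 1207 CPM in ECs and 264, 265, 240.5 and 219 CPM in fibroblasts (log2 fold change 2.23 with SE 0.17, FDR = 5.57e-08). Vegfa had 85.2, 66.7, 85.03 and 47.3 CPM in fibroblasts and 58.7, 37.2, 34.1 and 37.9 CPM in ECs (log2 fold change -0.76 with SE 0.25, FDR = 0.0231), with overlap. Vegfd had 13.8 to 34.5 CPM in fibroblasts and 4.89 to 9.12 CPM in ECs (log2 fold change -1.95 with SE 0.38, FDR = 7.63e-04), while Vegfc, the other lymphatic growth factor, was higher in ECs, at 17.03 to 33.3 CPM against 1.44 to 12.67 CPM (log2 fold change 1.68 with SE 0.41, FDR = 0.00430). The angiopoietins were likewise divided. Angpt1, which activates Tek, had 90.5, 50.9, 48.2 and 41.4 CPM in fibroblasts and 7.05, 8.81, 0.494 and 3.51 CPM in ECs (log2 fold change -3.52 with SE 0.46, FDR = 2.89e-05), and Angpt2, its context-dependent antagonist, had 20.6, 23.98, 48.9 and 25.96 CPM in ECs and 1.62, 1.92, 4.72 and 5.22 CPM in fibroblasts (log2 fold change 3.12 with SE 0.43, FDR = 2.73e-05). Pgf, or placental growth factor, had 109.6 to 206 CPM in fibroblasts and 12.8 to 22.9 CPM in ECs (log2 fold change -3.01 with SE 0.27, FDR = 2.92e-07). More than a 1.5-fold move in the fold itself (log2 values given) came with a single library left out for Flt1 (6.93 without FB Sham 1). No longer past the FDR were Vegfa without any of EC Sham 2, EC Sham 3, EC Sham 4, FB Sham 1, FB Sham 2 or FB Sham 3 (FDR = 0.0538 to 0.0845).

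The PDGF family ran in the opposite sense. Pdgfb, the ligand that recruits pericytes, had 364, 269, 422 and 262 CPM in ECs and 14.6, 12.48, 8.98 and 0.746 CPM in fibroblasts (log2 fold change 5.18 with SE 0.51, FDR = 1.69e-05), and Pdgfd had 35.2 to 71.5 CPM in ECs and 1.62 to 8.64 CPM in fibroblasts (log2 fold change 3.22 with SE 0.37, FDR = 4.85e-06). Pdgfa did not pass, at 28.2 to 48.5 CPM in ECs and 13.8 to 34.96 CPM in fibroblasts (FDR = 0.191). All 3 receptor-family genes were higher in fibroblasts. Pdgfrb had 69.8, 233, 225 and 275 CPM in fibroblasts and 14.1, 39.2, 11.4 and 21.7 CPM in ECs (log2 fold change -3.21 with SE 0.50, FDR = 5.71e-04). It was lowest in FB Sham 1. The summed level of the mural cell list was 1188, 1787, 3272 and 1428 CPM in FB Sham 1 to 4 and 713 to 1138 CPM in ECs, and the part of mural cells in the level of Pdgfrb was not tested.

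**Figure D4:**
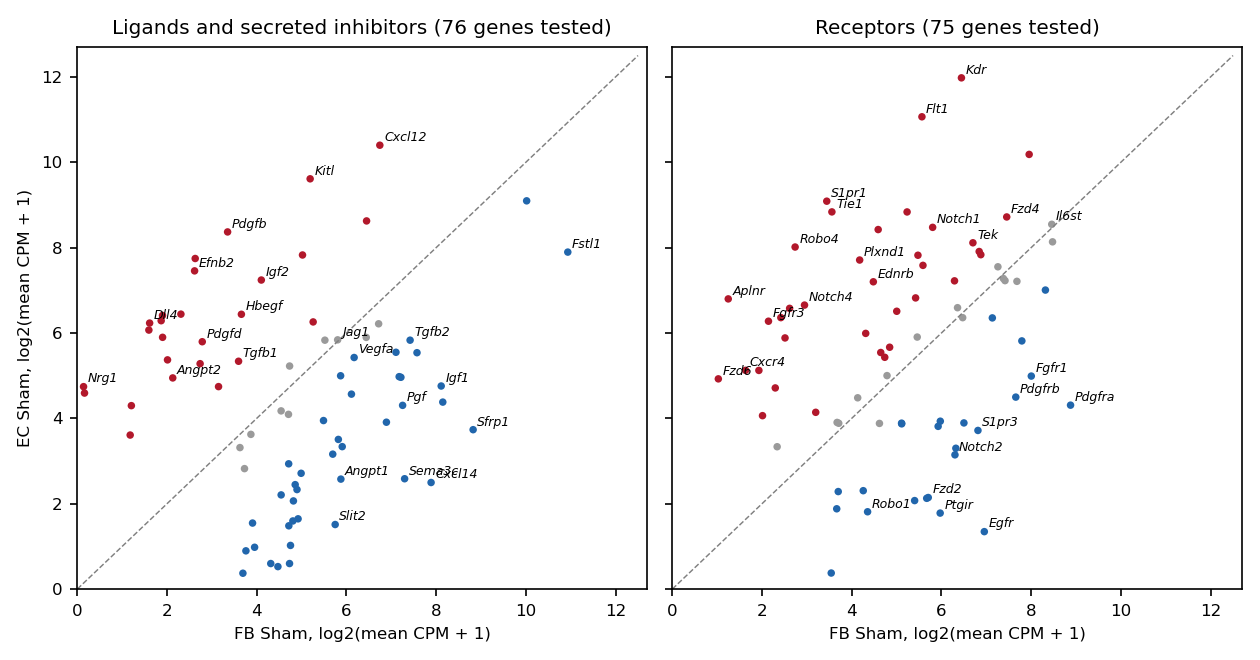
Mean expression in ECs (vertical axis) against fibroblasts (horizontal axis), both as log2(mean CPM + 1) over 4 libraries, for 76 tested ligand and inhibitor genes and 75 tested receptor genes, with 1 point per gene. Kdr, Flt1 and the other VEGF receptors lie toward ECs and Pdgfra and Pdgfrb toward fibroblasts, while Pdgfb lies toward ECs.

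Of 14 tested TGF-beta and BMP ligands and binding proteins, 12 were higher in fibroblasts and 2 in ECs (median -1.92). Tgfb2 had 155, 182, 164 and 179.7 CPM in fibroblasts and 49.3, 55.3, 45.4 and 73.7 CPM in ECs (log2 fold change -1.61 with SE 0.19, FDR = 6.55e-06), and Tgfb3 had 27.6 to 74.6 CPM in fibroblasts and 6.91 to 8.81 CPM in ECs (log2 fold change -2.67 with SE 0.33, FDR = 1.01e-05). Tgfb1, in contrast, had 57.6, 33.3, 31.1 and 35.8 CPM in ECs and 16.6, 10.1, 7.56 and 10.1 CPM in fibroblasts (log2 fold change 1.81 with SE 0.31, FDR = 2.17e-04). The 3 TGF-beta isoforms thus did not share a direction. Bmp4 had 56.2 to 79.9 CPM in fibroblasts and 20.7 to 27.9 CPM in ECs (log2 fold change -1.58 with SE 0.22, FDR = 2.62e-05), whereas Bmp6 was higher in ECs, at 45.2 to 104 CPM against 20.3 to 62.6 CPM, with overlap (log2 fold change 1.01 with SE 0.33, FDR = 0.0248). On the receiving side, 7 of 16 tested genes were higher in ECs and 5 in fibroblasts. Id1, a direct BMP target, had 412, 580.5, 743 and 605 CPM in ECs and 20.3, 46.1, 12.3 and 8.57 CPM in fibroblasts (log2 fold change 4.76 with SE 0.47, FDR = 1.75e-05). Smad6 and Smad7, inhibitory Smads that BMP and TGF-beta induce, were higher in ECs by 2.96 and 2.27 on the log2 scale. Acvrl1, the ALK1 receptor that is best known from ECs, had 139 to 243 CPM in ECs and 122 to 189.9 CPM in fibroblasts and did not pass (FDR = 0.468). Tgfbr3, or betaglycan, was higher in fibroblasts, at 121 to 220.3 CPM against 42.97 to 55.4 CPM (log2 fold change -1.91 with SE 0.21, FDR = 2.99e-06). The folds that single libraries moved by over 1.5 times, given here as log2, were those of Id1 (5.45 without FB Sham 2). The call was lost for Bmp6 without any of EC Sham 2 or FB Sham 3 (FDR = 0.0516 to 0.0804), Tgfbr1 without any of EC Sham 2, EC Sham 4, FB Sham 2 or FB Sham 4 (FDR = 0.0572 to 0.0763), Tgfbr2 without any of EC Sham 1, EC Sham 3, FB Sham 2 or FB Sham 4 (FDR = 0.0601 to 0.110) and Inhba without any of EC Sham 1, EC Sham 2, EC Sham 3, FB Sham 2 or FB Sham 4 (FDR = 0.0631 to 0.144).

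Notch ligands were higher in ECs for 3 of 4 tested. Dll4, the ligand of arterial and tip ECs, had 92.2, 59.7, 71.1 and 73.7 CPM in ECs and 2.03, 3.84, 2.36 and 0 CPM in fibroblasts (log2 fold change 5.204 with SE 0.42, FDR = 1.03e-07). Dll1 had 1 read over all fibroblast libraries and 15.9, 27.4, 19.8 and 29.5 CPM in ECs (count ratio 214, exact 95% interval 37.9 to 8517, FDR = 9.16e-07). Jag1 had 56.98, 44.5, 66.7 and 56.8 CPM in ECs and 65.3, 43.2, 62.8 and 48.1 CPM in fibroblasts, with overlap (FDR = 0.918). The receptors divided by paralog. Notch1 had 238, 394, 392 and 395 CPM in ECs and 53.96, 44.6, 60.5 and 60.4 CPM in fibroblasts (log2 fold change 2.69 with SE 0.21, FDR = 8.60e-08), and Notch4 had 89.8 to 113 CPM in ECs and 1.12 to 9.12 CPM in fibroblasts (log2 fold change 3.92 with SE 0.36, FDR = 5.78e-07). Notch2 had 55.99, 86.4, 57.6 and 111 CPM in fibroblasts and 3.52, 11.3, 8.89 and 7.72 CPM in ECs (log2 fold change -3.28 with SE 0.33, FDR = 1.35e-06), and Notch3, the mural receptor, had 18.3 to 81.7 CPM in fibroblasts and 6.42 to 21.5 CPM in ECs, with overlap (log2 fold change -2.19 with SE 0.48, FDR = 0.00329). The target genes differed in direction as well. Hey1 was higher in ECs (log2 fold change 3.498 with SE 0.42, FDR = 7.98e-06), Heyl was higher in fibroblasts (log2 fold change -4.13 with SE 0.35, FDR = 1.85e-07), and Hes1 did not pass, at 207 to 330.4 CPM in ECs and 81.96 to 292 CPM in fibroblasts (FDR = 0.0798). Leave-one-out fits gained the call of Hes1 without FB Sham 4 (log2 fold change 1.36, FDR = 2.17e-04).

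In the FGF, IGF and EGF families 3 of 7 tested ligands were higher in ECs and 4 in fibroblasts. Nrg1, a neuregulin that acts on cardiomyocyte ErbB receptors, had 19.4, 26.4, 17.3 and 39.99 CPM in ECs and 1 read over all fibroblast libraries (count ratio 233, exact 95% interval 41.2 to 9235, FDR = 1.05e-06). Hbegf, a ligand of Egfr, had 132, 84.2, 61.2 and 65.2 CPM in ECs and 19.9, 4.32, 15.6 and 6.71 CPM in fibroblasts (log2 fold change 2.87 with SE 0.40, FDR = 7.31e-05), so that this ligand and its receptor lay on opposite sides. Igf1 and Igf2 also differed in direction. Igf1 had 287, 261, 245 and 310.1 CPM in fibroblasts and 27.02, 32.3, 21.7 and 23.2 CPM in ECs (log2 fold change -3.397 with SE 0.20, FDR = 6.59e-09), and Igf2 had 109, 166, 116 and 209.8 CPM in ECs and 14.2, 20.2, 11.3 and 19.01 CPM in fibroblasts (log2 fold change 3.21 with SE 0.27, FDR = 1.75e-07). Their receptor Igf1r had 132 to 186 CPM in ECs and 128 to 216 CPM in fibroblasts and did not pass (FDR = 0.718). Fgfr1 was higher in fibroblasts (log2 fold change -3.05 with SE 0.25, FDR = 1.51e-07) and Fgfr3 in ECs (log2 fold change 4.43 with SE 0.39, FDR = 3.38e-07). Among IGF binding proteins, Igfbp4 had 1232 to 1707 CPM in fibroblasts and 83.95 to 169 CPM in ECs (log2 fold change -3.35 with SE 0.24, FDR = 3.45e-08), whereas Igfbp5 had 639 to 1292 CPM in ECs and 170.1 to 209.8 CPM in fibroblasts (log2 fold change 2.19 with SE 0.23, FDR = 1.46e-06).

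Wnt ligands and inhibitors were higher in fibroblasts for 5 of 7 tested and in ECs for 1 (median -3.68). Sfrp1, a secreted inhibitor, had 589, 353, 401 and 467 CPM in fibroblasts and 22.3, 12.2, 3.46 and 11.2 CPM in ECs (log2 fold change -5.21 with SE 0.39, FDR = 2.89e-07). Wnt5a had 18.3 to 32.4 CPM in fibroblasts and 0 to 3.46 CPM in ECs (log2 fold change -3.68 with SE 0.47, FDR = 1.18e-05), and Wnt2 had 6.91 to 17.6 CPM in ECs and 0 to 3.84 CPM in fibroblasts (log2 fold change 3.18 with SE 0.72, FDR = 0.00202). Of 10 tested Wnt receptors, 4 were higher in ECs and 1 in fibroblasts, against 17.9% and 20.2% of all tested genes. Fzd4 and its partner Tspan12, which form the Norrin receptor of vessels, were both higher in ECs, at 359 to 468 against 136 to 203 CPM (log2 fold change 1.27 with SE 0.18, FDR = 3.97e-05) and 24.1 to 36.5 against 2.40 to 6.61 CPM (log2 fold change 2.56 with SE 0.34, FDR = 1.76e-05). Fzd2 was the receptor on the fibroblast side, at 25.6 to 88.7 CPM against 0.494 to 7.34 CPM (log2 fold change -3.87 with SE 0.53, FDR = 4.77e-05). Single libraries moved the fold over 1.5 times, with the log2 value given, for Wnt2 (4.61 without FB Sham 2) and Fzd2 (-4.66 without EC Sham 2). Calls that did not hold were those of Lrp5 without any of EC Sham 3, FB Sham 1 or FB Sham 4 (FDR = 0.0522 to 0.0699).

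Guidance genes were found on both sides, with 8 of 17 tested ligands higher in ECs and 6 in fibroblasts, and 9 of 13 receptors higher in ECs and 4 in fibroblasts. Slit2 and Slit3, the ligands of Robo receptors, were fibroblast genes. Slit2 had 60.9, 38.4, 47.7 and 64.1 CPM in fibroblasts and 1.17, 2.94, 0.494 and 2.81 CPM in ECs (log2 fold change -4.82 with SE 0.39, FDR = 9.02e-08). Robo1 went with the ligands, at 14.9 to 22.4 CPM in fibroblasts and 1.40 to 4.405 CPM in ECs (log2 fold change -2.87 with SE 0.40, FDR = 3.33e-05), while Robo4, given above, was endothelial. The class 3 semaphorins were divided. Sema3c had 161, 163, 177 and 125 CPM in fibroblasts and 8.22, 1.96, 0 and 9.82 CPM in ECs (log2 fold change -5.07 with SE 0.51, FDR = 1.06e-05), and Sema3g had 49.9, 71.5, 52.8 and 60.3 CPM in ECs and 5.68, 4.32, 0.945 and 0 CPM in fibroblasts (log2 fold change 4.42 with SE 0.48, FDR = 4.33e-06). Plxnd1, their vascular receptor, had 177 to 254 CPM in ECs and 12.3 to 23.1 CPM in fibroblasts (log2 fold change 3.599 with SE 0.23, FDR = 1.66e-08). Efnb2 and Ephb4, the arterial ligand and venous receptor of the ephrin system, were both higher in ECs (log2 fold change 5.07 with SE 0.69, FDR = 4.37e-04 and log2 fold change 3.604 with SE 0.27, FDR = 6.12e-08). A fold that moved over 1.5 times on leaving out 1 library, here on the log2 scale, was found for Sema3g (5.16 without FB Sham 1) and Efnb2 (6.39 without FB Sham 1).

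Chemokines and cytokines were higher in ECs for 5 of 15 tested and in fibroblasts for 7. Cxcl12, which retains leukocytes and guides vessels, had 1285, 1051, 1631 and 1430.5 CPM in ECs and 146, 105.6, 94.5 and 78.7 CPM in fibroblasts (log2 fold change 3.67 with SE 0.23, FDR = 1.21e-08). Its receptor Cxcr4 had 30.5, 27.4, 47.4 and 30.2 CPM in ECs and 1.22, 7.1996, 0 and 0 CPM in fibroblasts (log2 fold change 4.08 with SE 0.64, FDR = 1.62e-04), and its scavenger Ackr3 was higher in fibroblasts, at 199 to 419 CPM against 70.5 to 169.8 CPM (log2 fold change -1.32 with SE 0.28, FDR = 0.00191). Kitl, the stem cell factor, had 722 to 884 CPM in ECs and 20.2 to 52.3 CPM in fibroblasts (log2 fold change 4.45 with SE 0.26, FDR = 6.22e-09). The fibroblast side held other chemokines. Cxcl14 had 209.8, 248, 262 and 224 CPM in fibroblasts and 5.87, 3.43, 2.96 and 6.31 CPM in ECs (log2 fold change -5.69 with SE 0.26, FDR = 2.92e-09), and Ccl2, which attracts monocytes, had 9.33, 35.998, 15.6 and 46.97 CPM in fibroblasts and 0.587, 3.43, 1.98 and 2.10 CPM in ECs (log2 fold change -3.67 with SE 0.60, FDR = 1.60e-04). Il33, an alarmin, was higher in fibroblasts, at 33.6 to 55.3 CPM against 6.31 to 22.02 CPM (log2 fold change -1.57 with SE 0.31, FDR = 7.68e-04). Il6ra and Il11ra1, the receptors for interleukins 6 and 11, were higher in fibroblasts (log2 fold change -3.15 with SE 0.29, FDR = 5.06e-07 and log2 fold change -2.001 with SE 0.21, FDR = 1.52e-06), while their shared partner Il6st had 264 to 464 CPM in ECs and 324 to 396 CPM in fibroblasts, with overlap (FDR = 0.765). Of 17 tested receptors 3 were higher in ECs and 7 in fibroblasts, against 17.9% and 20.2% of all tested genes. Moves of the fold by over 1.5 times on leaving out 1 library, as log2 values, were those of Cxcr4 (6.21 without FB Sham 2). Leave-one-out fits lost the call of Il1r1 without any of EC Sham 1, EC Sham 2, EC Sham 3, EC Sham 4, FB Sham 1 or FB Sham 3 (FDR = 0.0566 to 0.149) and Ifnar1 without any of EC Sham 2, EC Sham 3, FB Sham 2 or FB Sham 4 (FDR = 0.0587 to 0.146).

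Vasoactive pathways split by step. Nos3, the endothelial nitric oxide synthase, had 165, 245, 206 and 217 CPM in ECs and 9.33, 7.1996, 0 and 0 CPM in fibroblasts (log2 fold change 5.65 with SE 0.71, FDR = 2.78e-04), while Gucy1b1, a subunit of the guanylate cyclase that nitric oxide activates, had 82.8 to 209 CPM in fibroblasts and 43.95 to 73.9 CPM in ECs (log2 fold change -1.11 with SE 0.29, FDR = 0.00659). Ptgs1, which starts prostanoid synthesis, had 79.9, 211, 139.8 and 175 CPM in ECs and 9.33, 14.9, 3.31 and 5.22 CPM in fibroblasts (log2 fold change 4.21 with SE 0.41, FDR = 3.19e-06). The prostacyclin steps lay elsewhere. Ptgis, the prostacyclin synthase, had 226, 271, 269 and 267 CPM in fibroblasts and 27.02, 45.03, 18.8 and 25.3 CPM in ECs (log2 fold change -3.14 with SE 0.24, FDR = 7.92e-08), and Ptgir, its receptor, had 47.1, 47.997, 71.8 and 80.1 CPM in fibroblasts and 2.94, 3.43, 1.98 and 1.40 CPM in ECs (log2 fold change -4.6002 with SE 0.35, FDR = 5.90e-08). Ace, the angiotensin-converting enzyme that is known as a protein of vessel walls, was higher in fibroblasts, with 119, 129.6, 139 and 202 CPM against 9.40, 21.5, 12.3 and 8.42 CPM in ECs (log2 fold change -3.48 with SE 0.29, FDR = 1.74e-07). Endothelin genes were divided. Edn1 had 41.1 to 119 CPM in ECs and 23.04 to 47.1 CPM in fibroblasts, with overlap (log2 fold change 1.24 with SE 0.30, FDR = 0.00441), and Ednrb had 112 to 164 CPM in ECs and 11.2 to 30.2 CPM in fibroblasts (log2 fold change 2.78 with SE 0.27, FDR = 7.09e-07). Ednra, the other endothelin receptor, had 5.87, 2.94, 2.47 and 4.21 CPM in ECs and 6.90, 5.76, 25.98 and 9.32 CPM in fibroblasts, with overlap (log2 fold change -1.63 with SE 0.56, FDR = 0.0312). Apln, or apelin, had 32.3, 12.73, 47.4 and 21.7 CPM in ECs and 3.25, 0, 0 and 0 CPM in fibroblasts (log2 fold change 4.98 with SE 0.76, FDR = 7.04e-05), and its receptor Aplnr had 81.1, 127, 120.0 and 113 CPM in ECs and 4.06, 1.44, 0 and 0 CPM in fibroblasts (log2 fold change 6.25 with SE 0.52, FDR = 3.11e-07), so this ligand and receptor shared 1 population. Adm, or adrenomedullin, was higher in fibroblasts (log2 fold change -1.93 with SE 0.27, FDR = 3.94e-05), and its receptor parts Calcrl (log2 fold change 1.41 with SE 0.27, FDR = 7.07e-04) and Ramp2 (log2 fold change 0.94 with SE 0.20, FDR = 0.00135) were higher in ECs. Leaving out 1 library moved the fold by more than 1.5 times, to log2 values as given, for Nos3 (6.54 without FB Sham 1), Ednra (-0.94 without FB Sham 3), Apln (8.87 without FB Sham 1) and Aplnr (7.81 without FB Sham 1). No longer past the FDR were Ednra without any of EC Sham 2, EC Sham 3, EC Sham 4 or FB Sham 3 (FDR = 0.0619 to 0.169).

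The sphingosine 1-phosphate receptors were likewise divided by paralog. S1pr1 had 449, 572, 599.5 and 552 CPM in ECs and 22.7, 16.3, 0.472 and 0 CPM in fibroblasts (log2 fold change 5.78 with SE 0.95, FDR = 0.00257), while S1pr2 had 86.8, 84.95, 76.5 and 110.0 CPM in fibroblasts and 19.4, 7.34, 11.9 and 16.8 CPM in ECs (log2 fold change -2.71 with SE 0.27, FDR = 1.22e-06) and S1pr3 had 152, 74.4, 119.5 and 99.9 CPM in fibroblasts and 22.3, 7.34, 8.395 and 10.5 CPM in ECs (log2 fold change -3.21 with SE 0.33, FDR = 1.96e-06). Over the family as listed, 7 of 14 vasoactive ligands and enzymes and 10 of 17 receptors were higher in ECs, against 6 and 5 higher in fibroblasts. More than a 1.5-fold move in the fold itself (log2 values given) came with a single library left out for S1pr1 (6.71 without FB Sham 1).

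Complement genes were mostly fibroblast genes, with 7 of 11 tested higher in fibroblasts and 2 in ECs (median -4.06). C3, the central component, had 2181.7, 1858, 1980.3 and 1769 CPM in fibroblasts and 61.1, 113, 26.2 and 23.2 CPM in ECs (log2 fold change -5.11 with SE 0.48, FDR = 1.16e-05). Serping1, the C1 inhibitor, had 1120.3, 1582, 1142 and 2358 CPM in fibroblasts and 35.8, 87.1, 23.7 and 32.97 CPM in ECs (log2 fold change -5.097 with SE 0.45, FDR = 4.39e-06). The membrane regulators differed among themselves. Cd55 was higher in fibroblasts, at 150.2 to 256 CPM against 18.3 to 53.3 CPM (log2 fold change -2.37 with SE 0.29, FDR = 1.18e-05), and Cd59a was higher in ECs, at 133 to 252 CPM against 16.5 to 35.998 CPM (log2 fold change 2.93 with SE 0.27, FDR = 4.32e-07). Clotting and fibrinolysis genes were higher in each population for 4 of 16 tested, shares near the background. Thbd, or thrombomodulin, had 191, 533, 387 and 386 CPM in ECs and 129, 149.8, 140.3 and 222 CPM in fibroblasts, with overlap (log2 fold change 1.22 with SE 0.27, FDR = 0.00260). Entpd1, which removes ATP from the vessel surface, had 61.7, 79.3, 67.7 and 83.5 CPM in ECs and 4.06, 14.9, 2.83 and 3.73 CPM in fibroblasts (log2 fold change 3.54 with SE 0.39, FDR = 3.37e-06). Serpine2 had 691, 433, 616 and 571 CPM in fibroblasts and 48.2, 72.9, 28.1 and 62.4 CPM in ECs (log2 fold change -3.45 with SE 0.27, FDR = 1.02e-07). The folds that single libraries moved by over 1.5 times, given here as log2, were those of C3 (-5.71 without EC Sham 2) and Entpd1 (4.37 without FB Sham 2). The call was lost for Anxa2 without any of EC Sham 1, EC Sham 3, FB Sham 2 or FB Sham 3 (FDR = 0.0540 to 0.0821).

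Class I antigen presentation was higher in ECs, as 12 of 16 tested genes of the list were higher in ECs and none in fibroblasts (median 1.26). H2-K1 had 732, 961, 645 and 914 CPM in ECs and 387, 348, 274 and 429 CPM in fibroblasts (log2 fold change 1.18 with SE 0.19, FDR = 1.46e-04), and Psmb9, a subunit of the immunoproteasome, had 40.5 to 58.7 CPM in ECs and 3.78 to 14.9 CPM in fibroblasts (log2 fold change 2.498 with SE 0.36, FDR = 4.76e-05). The class I genes share reads with near-identical copies, so the division among them is uncertain. Class II genes did not pass. H2-Ab1 had 8.81, 12.73, 5.43 and 9.12 CPM in ECs and 2.84, 155, 2.36 and 0 CPM in fibroblasts (FDR = 0.394), with nearly all fibroblast reads in FB Sham 2, the library with the macrophage genes. Without FB Sham 2, H2-Ab1 was higher in ECs by 2.43 and H2-Aa by 2.68 on the log2 scale, both past the FDR. Calls that did not hold were those of B2m without any of EC Sham 2, EC Sham 3, EC Sham 4, FB Sham 1 or FB Sham 3 (FDR = 0.0560 to 0.106).

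Carriers of glucose, sodium and small solutes were higher in ECs for 5 of 14 tested and in fibroblasts for 3, against 17.9% and 20.2% of all tested genes. Slc6a6, the taurine carrier, had 633, 879.5, 1048 and 883 CPM in ECs and 55.2, 69.1, 34.5 and 50.7 CPM in fibroblasts (log2 fold change 4.04 with SE 0.24, FDR = 8.10e-09). Slc2a1, the glucose carrier GLUT1, was low in both, at 7.64 to 16.3 CPM in ECs and 2.88 to 5.96 CPM in fibroblasts (log2 fold change 1.48 with SE 0.41, FDR = 0.00934). Slc5a2, which encodes the SGLT2 carrier that empagliflozin inhibits, had no read in any of the 8 libraries, which allows up to 2.10 CPM in ECs and 1.44 CPM in fibroblasts, and Slc5a1, or SGLT1, had 1 library with a read, EC Sham 1 at 0.587 CPM. Leave-one-out fits lost the call of Slc38a2 without any of EC Sham 1, EC Sham 2, FB Sham 2, FB Sham 3 or FB Sham 4 (FDR = 0.0542 to 0.151), Slc39a10 without EC Sham 3 (FDR = 0.0647) and Slc16a1 without any of EC Sham 2, EC Sham 3, EC Sham 4 or FB Sham 3 (FDR = 0.0598 to 0.113).

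Genes that respond to cell isolation were examined because both populations had passed through digestion and sorting. Of 17 tested immediate early genes, 4 were higher in ECs and 2 in fibroblasts, with a median of 0.07. The background was 17.9% of all tested genes for ECs and 20.2% for fibroblasts, so these counts show no clear excess. Fos had 274, 690.1, 284 and 461 CPM in ECs and 1061, 224, 239.5 and 474 CPM in fibroblasts, with overlap (FDR = 0.795), and Egr1 had 902 to 2136 CPM in ECs and 932 to 3839 CPM in fibroblasts (FDR = 0.468). Both genes were present in every library and highest in FB Sham 1. Klf6 was higher in ECs, at 1049.9 to 1300.4 CPM against 269 to 581 CPM (log2 fold change 1.48 with SE 0.22, FDR = 4.80e-05), as was Jun (log2 fold change 1.25 with SE 0.39, FDR = 0.0269). Among 12 heat shock genes, 3 were higher in ECs and none in fibroblasts, against the same background. Hspa1a had 241, 938, 443 and 721 CPM in ECs and 83.6, 181, 73.7 and 113 CPM in fibroblasts (log2 fold change 2.38 with SE 0.44, FDR = 0.00174), and Hspb1 had 1213 to 2298 CPM in ECs and 369.8 to 1119.9 CPM in fibroblasts (log2 fold change 1.32 with SE 0.33, FDR = 0.00689). Hsp90ab1, one of the genes with the most counts in both populations, did not pass, at 3863 to 6902 CPM in ECs and 3171 to 6531 CPM in fibroblasts (FDR = 0.795). No longer past the FDR were Jun without any of EC Sham 1, EC Sham 2, FB Sham 3 or FB Sham 4 (FDR = 0.0627 to 0.0987).

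Markers of cells outside the gates were counted in full. Of 12 cardiomyocyte genes tested, none passed in either direction. The summed level of that list was 806.5, 531.5, 2052 and 727.5 CPM in EC Sham 1 to 4 and 402.1, 898.5, 1252 and 225.1 CPM in FB Sham 1 to 4, and on a scale common to all libraries this was 0.633% and 0.427% of the level in the Sham cardiomyocyte libraries. Mural cell genes were higher in fibroblasts for 6 of 11 tested and in ECs for 1. Kcnj8, a potassium channel of pericytes, had 76.7, 215, 329.7 and 123 CPM in fibroblasts and 16.4, 33.8, 16.8 and 14.03 CPM in ECs (log2 fold change -3.17 with SE 0.48, FDR = 3.78e-04), and Cspg4, or NG2, had 58.4, 57.6, 147 and 53.3 CPM in fibroblasts and 12.9, 16.6, 6.91 and 8.42 CPM in ECs (log2 fold change -2.796 with SE 0.39, FDR = 5.94e-05). FB Sham 3 held the most of both. Rgs5, another pericyte gene, had 524 to 769 CPM in ECs and 609 to 1654 CPM in fibroblasts, with overlap (FDR = 0.0948), and Myh11, of smooth muscle, was higher in ECs with overlap (log2 fold change 1.52 with SE 0.49, FDR = 0.0286). Their part in the differences of Pdgfrb, Notch3 and Heyl was not tested. The call was lost for Myh11 without any of EC Sham 1, EC Sham 4, FB Sham 1, FB Sham 2 or FB Sham 4 (FDR = 0.0656 to 0.0864). The call was gained for Rgs5 without FB Sham 1 (log2 fold change -0.75, FDR = 0.0252).

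Of 15 macrophage genes, 4 were tested and none passed. Lyz2 had 7.05, 9.30, 1.48 and 0 CPM in ECs and 2.84, 329, 12.8 and 0 CPM in fibroblasts, and the pan-leukocyte gene Ptprc had 1.76, 0, 1.48 and 1.40 CPM and 1.62, 23.998, 2.36 and 0 CPM. FB Sham 2 thus carried reads of cells that the CD45 gate is meant to remove. Ighm, of B cells, had 0.406, 25.9, 0 and 0 CPM in FB Sham 1 to 4. Mesothelial genes were on the fibroblast side for 3 of 4 tested, with Upk3b at 34.1 to 57.1 CPM against 2.81 to 9.30 CPM in ECs (log2 fold change -2.87 with SE 0.33, FDR = 4.11e-06), and Wt1, given above, was the fourth. Schwann cell genes were higher in fibroblasts for 3 of 4 tested, with S100b, a calcium-binding protein, at 8.11 to 27.9 CPM against 1.40 to 11.2 CPM in ECs (log2 fold change -1.77 with SE 0.52, FDR = 0.0140). Adipocyte, neutrophil, and T and NK cell genes were too low to test, and the hemoglobin genes did not pass. Single libraries moved the fold over 1.5 times, with the log2 value given, for S100b (-2.46 without EC Sham 1). Calls that did not hold were those of S100b without any of EC Sham 3 or FB Sham 3 (FDR = 0.0517 to 0.0560).

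**Figure D5:**
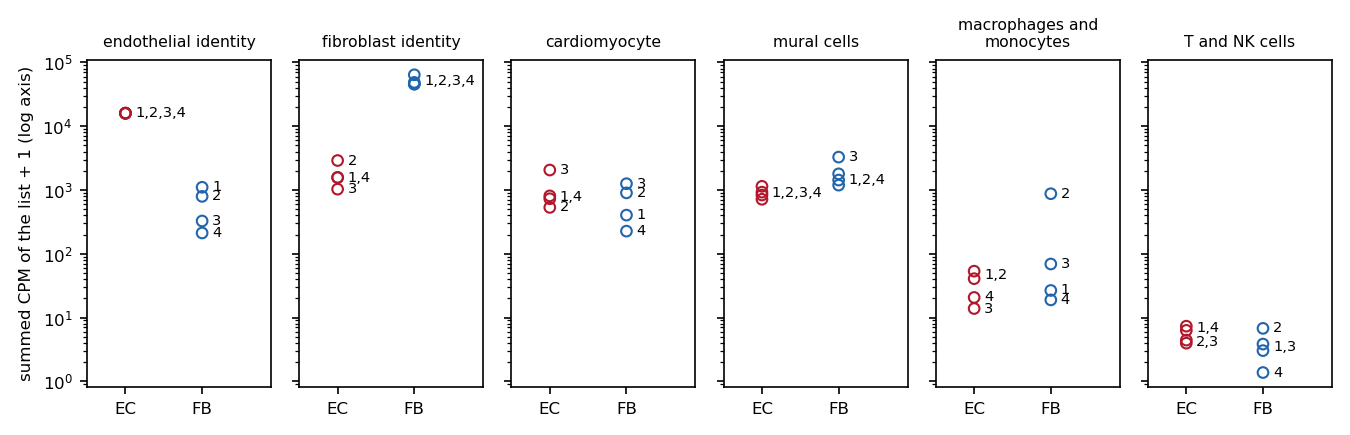
Summed CPM of the members of 6 gene lists in each of the 8 Sham libraries (logarithmic vertical axis; 1 point per library). Endothelial identity falls from 1100.0 to 210.6 CPM across FB Sham 1 to 4 against 15869 to 16073 CPM in ECs, and the macrophage sum of FB Sham 2, 871.6 CPM, lies above all other libraries.

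Among the 10 genes with the most counts in each population, genes encoded by mitochondrial DNA left out, 4 were on both lists: Actb, Hsp90ab1, Sparcl1 and Gm29216. Actb, the cytoskeletal actin, had 8549.8, 9076, 9576 and 9564 CPM in ECs and 8999.8, 9827, 10313 and 8672 CPM in fibroblasts (log2 fold change -0.04 with SE 0.18, FDR = 0.884). Gm29216 is annotated as an unprocessed pseudogene whose reads may belong to a near-identical copy, and is left without a value. Its level ranked the libraries of each population in the order of their mitochondrial share, and the part of mitochondrial reads in it was not tested. The EC list further held Fabp4, Kdr and Cavin2 of those already given, Sptbn1, a spectrin (log2 fold change 0.82 with SE 0.19, FDR = 0.00263), and Ptma (log2 fold change 0.64 with SE 0.30, FDR = 0.107), the last with EC Sham 1 at 4417 CPM against 2263 to 2618 CPM in the other EC libraries. The fibroblast list further held Gsn, Dcn, Timp2 and Sparc, together with Ccdc80, a matrix gene (log2 fold change -3.17 with SE 0.20, FDR = 1.17e-08), and Tpt1 (log2 fold change -0.38 with SE 0.22, FDR = 0.193). Sparc, which binds collagen, had 2780.0 to 3629 CPM in fibroblasts and 1482 to 2082 CPM in ECs (log2 fold change -0.78 with SE 0.18, FDR = 0.00271). A call appeared for Ptma without FB Sham 1 (log2 fold change 1.01, FDR = 0.00525).

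Whether the distance between the populations itself changed after infarction was tested as an interaction over all 38 libraries. It compares the EC minus fibroblast difference in Control-AMI hearts (a coronary ligation of 30 minutes, released 2 hours before the cells were taken, with vehicle) with that in Sham hearts, and 12085 genes were tested. The difference moved toward ECs for 362 genes (3% of those tested) and toward fibroblasts for 100 (0.827%). Of the 20 fibroblast identity genes 17 moved toward ECs (median change 2.77 on the log2 scale, against 0.05 for all genes), and of the 13 collagens 10 did (median 2.69), whereas none of the 20 endothelial identity genes passed (median -1.31). The summed fibroblast identity level in ECs was 637.5 to 1802 CPM in Sham and 2544 to 11240 CPM in Control-AMI libraries, on the scale of all 38, with the highest value in EC Control-AMI 1, while the summed endothelial identity level in ECs was 9825 to 9988 CPM in Sham and 6019 to 7938 CPM in Control-AMI. In fibroblasts the summed endothelial identity level was 130.4 to 691.5 CPM (median 344.6) in Sham libraries. It was 320.3 to 772.8 CPM (median 743.1) in Control-AMI libraries. The endothelial median of -1.31 therefore holds a lower level in ECs and a higher median level in fibroblasts. Fibroblast genes in the EC fraction and a smaller endothelial share moved together. Admixture of cells and a change within a population cannot be told apart on either side. Without EC Control-AMI 1, 176 genes moved toward ECs and 53 toward fibroblasts, 7 of 20 fibroblast identity genes among them. Without EC Control-AMI 3 the numbers were 390 and 117, and without FB Sham 2 they were 321 and 94. Of 11 macrophage genes 7 moved toward ECs, but 1 did so without EC Control-AMI 3 or without FB Sham 2, the libraries with the most macrophage reads in their groups (552.8 and 534.8 CPM).

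The genes that moved toward fibroblasts included Prdm1, a transcriptional repressor, which had 38.4 ± 12.6 CPM (SD, n = 4) in EC Sham and 8.94 ± 6.49 CPM (n = 4) in EC Control-AMI libraries, against 0.623 and 2.58 CPM in fibroblasts (interaction -3.99, FDR = 0.002). Tmem88, an inhibitor of Wnt signaling, stayed near 82.1 and 77.7 CPM in ECs and was 1.77 CPM in Sham and 16.4 CPM in Control-AMI fibroblasts (interaction -3.28, FDR = 0.001). Both passed with every single library left out. The part of endothelial cells among the fibroblasts in the rise of Tmem88 was not tested. In hearts pretreated with empagliflozin, with the same ischemia, the difference moved toward ECs for 27 genes (0.223%) and toward fibroblasts for 44 (0.364%), and none of the genes of either identity list passed, with medians of -0.17 for fibroblast and -0.44 for endothelial identity. These interactions share the Sham libraries, so each stands on its own values only.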

How the data were processed

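Male C57BL/6 Sham mice gave 4 EC and 4 fibroblast libraries, each from 2 pooled hearts. Libraries were made with the QuantSeq 3′ kit, in which reads fall at the 3′ end of transcripts, and were sequenced at one time on a NextSeq 550. Per the labels and the study's methods, reads were checked with FastQC, trimmed with cutadapt 2.8 and quantified with Salmon on GRCm39, and the authors deposited estimated counts summed per gene in 1 table for all 38 libraries. The submitters' notes also name R 4.0.3 and edgeR. The use of molecular identifiers and of strand in counting is not given in the sources used here, so reads of a gene and of an antisense partner may not be told apart.

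The deposited estimated counts, of which 4.55% were not whole, were rounded. Genes were filtered with filterByExpr (minimum count 10), scaled with TMM factors, and tested with edgeR 4.0.16 (robust quasi-likelihood test, R 4.3.3) on the 8 Sham libraries, with Benjamini-Hochberg adjustment over all genes tested. Every FDR comes from this edgeR test, fitted on these libraries unless a left-out library or an interaction is named. A call is an FDR below 0.05. The edgeR biological coefficient of variation was 0.279. Genes with 3 counts or fewer over one population are given as a ratio of total counts per library size with an exact 95% interval. Such intervals and the floor of 3 counts cover counting error only. Interactions were fitted over all 38 libraries in 1 model of 9 groups. The steps were tested on simulated data. P-values measure the spread between pools of 2 hearts, with the 8 libraries taken as independent. The study sorted both populations from the same cell suspensions. Its Sham group was too small to give 8 libraries of 2 hearts each without shared hearts. Some EC and fibroblast libraries thus hold cells of the same hearts. Which ones do so is not known here, and the main test used no pairing. No 2 libraries of a group agreed within counting error. DESeq2 1.42.0, other scalings, filters and sample sets, and single libraries left out were run as alternatives.

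Genes were named by rule: members of the gene lists, the 15 with the highest log2 fold change in each direction among called genes without overlap and with at least 50 CPM in the higher population, the 10 with the highest mean CPM per population apart from genes encoded by mitochondrial DNA, and the 5 largest interaction changes in each direction. The lists and members were chosen with earlier results of these data known. Promoters were read from the GRCm39 genome at the start of the transcript that its gene annotation marks as canonical, which for Icam2 lies inside the annotated gene.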

Additional observations from a re-analysis of the deposited data

Results flagged for a closer look

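Within the groups of 4 libraries, 16 of 173 sets of values held 1 library far from the other 3 (Dixon's test at 95%), of which chance gives about 1 in 20. In ECs, EC Sham 1 stood apart for Cyp26b1 (3837 CPM against 199 to 338 CPM), for Ptma (4417 against 2263 to 2618 CPM), for the summed TGF-beta and BMP receptors and targets (2344 against 3056 to 3142 CPM) and for the summed Notch receptors and targets (639.6 against 932 to 944 CPM). EC Sham 2 stood apart for Pecam1 (2118 against 1798 to 1850 CPM) and with it for the summed gate markers (2128 against 1810 to 1859 CPM). EC Sham 3 did so for the summed guidance receptors (1534 against 1240 to 1283 CPM), and EC Sham 4 for the summed capillary lipid uptake genes (12556 against 14588 to 14739 CPM) and neutrophil genes (18.24 against 5.87 to 7.90 CPM). In fibroblasts, FB Sham 2 stood apart for Ptprc (23.998 against 0 to 2.36 CPM), for the summed macrophage genes (871.6 against 17.9 to 68.0 CPM), the summed B cell genes (35.998 against 0 to 0.746 CPM) and the summed matrix glycoproteins (34934 against 39815 to 40564 CPM). FB Sham 1 did so for the summed vasoactive ligands and enzymes (1202 against 1470 to 1490 CPM), FB Sham 3 for the summed capillary lipid uptake genes (1649.7 against 2235 to 2346 CPM) and FB Sham 4 for the summed fibroblast identity genes (63899 against 45464 to 48562 CPM).

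The interaction terms also picked out genes whose EC minus fibroblast difference changed between Sham and ischemic hearts. In Control-AMI the largest changes toward ECs on the log2 scale were those of Wfdc17 (11.20), Fcer1g (8.64), Lyz2 (8.37), C1qc (8.18) and Il1b (7.68), genes known from macrophages and other myeloid cells. The calls of Wfdc17, Lyz2, C1qc and Il1b were lost without EC Control-AMI 3 or without FB Sham 2, and that of Fcer1g without FB Sham 2. The largest toward fibroblasts were those of Tmem82 (-6.66), Gm7816 (-4.23), Prdm1 (-3.99), Tmem88 (-3.28) and Akap5 (-3.12). The means of the compared groups were only 0.0736 to 1.37 CPM for Tmem82 and 0.137 to 3.34 CPM for Gm7816. The changes of these genes rest on few reads near the floor of detection. In EMPA-Pre-AMI the largest toward ECs were those of Rpl31-ps9 (6.23), Cables1 (2.95), Ap5z1 (2.73), Trim7 (2.61) and Ppp1r13l (2.43), and toward fibroblasts those of Cpne7 (-3.12), Acss1 (-2.80), Tmem88 (-2.78), Aldh1a3 (-2.78) and Layn (-2.61). Group means were low for Ap5z1 (1.15 to 3.82 CPM), Trim7 (0.937 to 3.76 CPM) and Rpl31-ps9 (0.152 to 8.07 CPM). Prdm1 and Tmem88 in Control-AMI and Layn and Cables1 in EMPA-Pre-AMI passed with every single library left out. Rpl31-ps9 and Gm7816 are a pseudogene and a gene model, whose reads may belong to other genes.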

How the results depend on the processing

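Of 446 named genes that passed, 355 passed under every alternative that tested them. The 4070 calls became 2637 (1249 higher in ECs, 1388 in fibroblasts) when each library had to hold 10 or more counts of a gene, which leaves out genes absent from one population, and 1857 (890 and 967) in a test against a 2-fold change. The first of these also left 227 and 253 genes at 4-fold. DESeq2 called 4097 (with no FDR for 11 genes), other scalings 4045 to 4083, no filter 4493 and all 38 libraries in 1 model 4821, while the share of calls higher in ECs ran from 45.8% to 51.2%. Leaving out single libraries gave 3621 to 4324 calls. Alternatives chosen after seeing the data gave 3966 calls (earlier quasi-likelihood method), 3925 (without EC and FB Sham 1) and 3876 (without FB Sham 1 and 2). For 5 named genes the log2 fold change turned: with single libraries left out Cxcl2 ran from -1.41 to -0.30, H2-Aa ran from -2.83 to 2.68, H2-Ab1 from -2.52 to 2.43, Mrc1 from -0.90 to 2.30 and Nppa from -0.51 to 1.42, and without FB Sham 1 and 2 they were 2.29, 3.07, 3.09, 3.35 and 2.96 in this order; the cause was not tested. With the replicate number as a block 4236 genes passed, with 1 named gene lost and 13 gained. The labels do not say whether EC and fibroblast libraries of the same number share hearts. Deviations of same-numbered libraries correlated at 0.313, 0.0578, -0.00576 and 0.0620.

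The Control-AMI interaction had 462 genes, 438 with the replicate block, 521 with DESeq2, 314 with the compared groups alone, 134 under the filter of 10 or more counts in each library, and 229 (without EC Control-AMI 1) to 585 (without FB Sham 1) with 1 library left out. The EMPA-Pre-AMI interaction had 71 genes, 51 with the block, 115 with DESeq2, 51 with the compared groups alone, and 29 (without FB EMPA-Pre-AMI 4) to 85 (without EC EMPA-Pre-AMI 2). Without EC Sham 2, 3 or 4 it had 47, 34 and 46, without EC EMPA-Pre-AMI 1, 4 or 5 it had 42, 37 and 46, and without FB Sham 4 or FB EMPA-Pre-AMI 2 it had 38 and 45. Depth limits genes at 0 in one population, whose fold depends on the floor.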

Other observations

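Several list members had too few reads to be tested and were still uneven between the populations. Ptges, a prostaglandin E synthase, had no read in any EC library and 4.25 to 10.6 CPM in fibroblasts. Ece2, an endothelin-converting enzyme, likewise had no read in ECs and 2.98 to 5.67 CPM in fibroblasts. Ccl11, the chemokine eotaxin, had reads in EC Sham 3 alone among ECs, at 0.494 CPM, and 4.72 to 13.4 CPM in fibroblasts. Agtr1a, the main angiotensin II receptor, had 0 to 0.494 CPM in ECs and 2.43 to 6.61 CPM in fibroblasts, and Fgf7, a growth factor for epithelia, had 0 to 0.489 and 1.42 to 7.68 CPM. Ramp1, a part of the receptor for calcitonin gene-related peptide, had 0 to 1.76 and 4.10 to 6.09 CPM. On the other side, Wnt9b had 4.11 to 18.2 CPM in ECs and 0 to 0.406 CPM in fibroblasts, and Dkk2, a Wnt modulator, had 4.11 to 9.30 and 0 to 1.62 CPM. At this depth 3 counts were worth 1.12 to 2.10 CPM, and these values carry no test.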
